A study of Mus musculus with 3 samples.

Results

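The 10 genes described here belong to the contractile machinery of smooth muscle (of 51912 genes in the count tables) and were followed across the stromal cell types of mouse LNs. They were taken by symbol, whatever their counts: the actins Acta2 and Actg2, the myosin chains Myh11 and Myl9, the tropomyosins Tpm1 and Tpm2, the actin-associated proteins Tagln, Cnn1 and Pdlim3, and the intermediate filament protein Des. The cells came from C57BL/6 mice carrying the Cxcl13-Cre/TdTomato transgene, were sorted as live Podoplanin+ CD31- CD45- TdTomato+ cells, and were profiled with 10x 3' single-cell RNA sequencing. TdTomato is carried by this transgene of Cxcl13, a follicular chemokine, so the sort takes cells that the transgene marks, and not all LN stroma. Mice of the 2-IC group received an antigen immune complex (IC) 7 days before collection and another 24 hours before it (2 libraries), and mice of the 1-IC group received 1 IC 24 hours before collection (1 library). The 2-IC libraries share this schedule in their titles but carry different short tags there (Biotin24h and Biotin7d), and what the tags mean is not given in the sources used here. All mice were immunised, and each library held cells pooled from several mice.

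Smooth muscle cells contract when phosphorylation of the myosin regulatory light chain lets a smooth muscle myosin pull on actin filaments, while tropomyosin, calponin and transgelin lie along those filaments and desmin links the cell's interior together. Fibroblastic reticular cells of LNs, the contractile fibroblasts that enwrap the conduits and bear the mechanical load of the organ, express part of this set without being smooth muscle. Many promoters of the set are activated by serum response factor and its myocardin-related partners through a sequence called the CArG box.

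The stromal types were set by raw UMI counts (unique molecular identifiers, 1 per captured transcript). Barcodes with a UMI of 13 genes of blood, endothelial or epithelial cells were removed, a step called the filter on blood and endothelial RNA below. After it, 2148 stromal barcodes of 5486 were retained. A barcode with at least 1 UMI of Cr2, a complement receptor of follicular dendritic cells, was placed in the FDC gate (223 barcodes). Of those without Cr2, barcodes with at least 2 UMIs of Madcam1 formed the marginal reticular cell (MRC) gate, with 44 barcodes. Of the rest, at least 2 UMIs of only Tnfsf11, Fmod or Inmt gave the interfollicular (IFRC, 131), T-B border (TBRC, 91) and medullary (MedRC, 683) reticular cell gates. A further 247 passed several of these last gates and 729 passed none. Of the markers that did not set the gates, some were highest in the gate of their cell type and some were not. Fcer2a and Fcgr2b, receptors of FDCs, averaged 200.1 and 216 CPM (counts per 1000000 UMIs) in the FDC gate, where 36.3 and 44.4% of barcodes had them, and at most 15.2 CPM elsewhere. Sox9 and Coch, also of FDCs, set the FDC gate less apart from the MRC gate. They averaged 302 and 217 CPM in the FDC gate and 156 and 67.9 CPM in the MRC gate. Sox9 was seen in 49.3% of FDC and 47.7% of MRC barcodes, and Coch in 25.1 and 22.7%. Ccl21a, of TBRCs, averaged 15709 CPM in the TBRC gate and at most 5000.4 CPM elsewhere, and Nr4a1, of MedRCs, averaged 539 CPM in the MedRC gate and at most 294 CPM elsewhere. Cyp2f2, also of MedRCs, averaged 196 CPM there and at most 97.6 CPM elsewhere. Stc1, a further MedRC marker, hardly set the MedRC gate apart from the IFRC gate (418 and 346 CPM, in 60.3 and 58.8% of barcodes). Ch25h, a marker of IFRCs, was higher in the MRC gate (133 CPM) than in the IFRC gate (70.3 CPM), and Clu, a marker of FDCs, was not highest in the FDC gate (17673 CPM, against 18843 CPM in the MRC gate). Tnfsf11, which set the IFRC gate, is given by the paper for MRCs too, and averaged 553 CPM in the MRC gate and 531 CPM in the IFRC gate. MRCs with under 2 Madcam1 UMIs could thus fall in the IFRC gate, and their part there was not tested. The FDC gate took barcodes whatever their other markers, and Inmt averaged 212 CPM there, against 950 CPM in the MedRC gate. The paper also reports CR2 on B cells. Without the removal of blood and endothelial RNA, the FDC gate of 2-IC replicate 1 held 354 barcodes, against 144 with it. The part of B cell or free RNA in the Cr2, Fcer2a and Fcgr2b counts was not tested.

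The libraries held 20607903, 12788101 and 3766526 UMIs (2-IC replicate 1, 2-IC replicate 2 and 1-IC replicate 1). The 2-IC libraries shared 76 barcodes, and in 75 of these the copy with fewer UMIs held under 10% of the UMIs of the other. UMIs were summed per library and gate, which gave 15 sums of 81345 to 2751356 UMIs, and levels are given in CPM of these sums. Because a transcript is counted once at its 3' end, CPM does not grow with gene length. How evenly different genes were captured and counted was not measured, so an order between genes is an order of counts. Gates were compared over the 3 libraries with edgeR's quasi-likelihood test, with library as a block, and p-values were adjusted by Benjamini-Hochberg over 7011 genes. A gene was called at an adjusted p under 0.05. The test treats the 3 libraries as replicates of the gates, whatever their IC schedule. The block takes out differences in level between libraries. The p-values thus measure how far differences between gates varied from library to library, with the spread estimated over the 15 sums.

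Of the 10 genes, 8 passed the filter on low counts. Cnn1, which encodes calponin and is a marker of differentiated smooth muscle, had 2 UMIs in the 1172 gated barcodes, 1 in the MRC gate and 1 in the TBRC gate, both in 2-IC replicate 1. Actg2, the enteric smooth muscle actin, had 1 UMI, in the MedRC gate of the same library. Over all 5486 barcodes the counts were 6 and 3 UMIs. Both genes were thus at the limit of detection, as 3 UMIs over all gated barcodes correspond to 0.325 CPM, and neither was tested.

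Genomic positions on GRCm38 place the most abundant member, Des, on chromosome 1 (75360329 to 75368579, plus strand), where an antisense gene, Gm15179, overlaps it. Acta2 lies on chromosome 19 (34241090 to 34255590, minus strand) and Myh11 on chromosome 16 (14194535 to 14291372, minus strand). Tagln lies on chromosome 9 (45929619 to 45936058, minus strand) and overlaps Pcsk7 and Gm48529 on the opposite strand. Pdlim3 lies on chromosome 8 (45885461 to 45919548, plus strand). Myl9 is on chromosome 2 (156775420 to 156781658), Tpm2 on chromosome 4 (43514711 to 43523765), and Tpm1 on chromosome 9 (67022590 to 67049406). The 10x protocol keeps the strand of a transcript. How the authors' counting treated overlapping genes is not given in the sources used here.

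Windows of the promoters are shown because 3 of the genes that moved between gates hold CArG-like sequences there. RefSeq promoters (GRCm38.p6) were found for 7 of the 10 genes, all but Tagln, Myh11 and Actg2, and the 250 bases before the start site were searched for the CArG box, which is its own reverse complement, and for a looser form in which 1 of its inner A or T bases may be C or G. The windows below are read 5′ to 3′ on the gene's strand, with the matched bases in capitals.
Acta2, chr19:34255438-34255467: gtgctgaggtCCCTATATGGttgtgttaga
Acta2, chr19:34255388-34255417: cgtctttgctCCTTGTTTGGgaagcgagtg
Myl9, chr2:156775293-156775322: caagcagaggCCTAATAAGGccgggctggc
Myl9, chr2:156775355-156775384: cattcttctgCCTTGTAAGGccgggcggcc
Pdlim3, chr8:45885377-45885406: tctctcacttCCAAAGTTGGagctctcctt

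The match CCTAATAAGG of Myl9, whose first base lies 161 bases before the start, is a full CArG box. The other 4 are the looser form, at 84 and 34 bases before the start for Acta2, 99 for Myl9 and 100 for Pdlim3. In the GENCODE vM21 models the Acta2 windows fall within an exon of a longer transcript, in its UTR, and the Myl9 and Pdlim3 windows lie upstream of the gene. No match was found in Tpm1, Tpm2, Cnn1 or Des. The full box occurred in 1.478% of 32536 RefSeq promoter windows of this length and the looser form in 8.587%. A match describes the letters only, and binding was not measured.

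Across the gates the genes did not move as 1 group. The FDC gate had the highest mean of Pdlim3 and, with the MRC gate, the highest of Myh11, and it had the lowest means of Tagln, Myl9, Tpm2 and Des. Acta2 was most abundant in the IFRC, MRC and TBRC gates, though 42 of its 71 UMIs in the MRC gate of the 1-IC library came from 1 of 13 barcodes. Tagln was most abundant in the TBRC and IFRC gates, and its MRC mean was high through the 1-IC library alone, the 2-IC libraries of the MRC gate lying below those of the MedRC gate. The MedRC gate was lowest for Acta2, Myh11, Tpm1 and Pdlim3. Summed over the 10 genes, the level was 1406 to 1873 CPM in the FDC gate, 1584 to 2028 CPM in the MedRC gate, and 2115 to 3690 CPM in the MRC, IFRC and TBRC gates, with no overlap between these last 3 and the other gates.

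**Figure D1:**
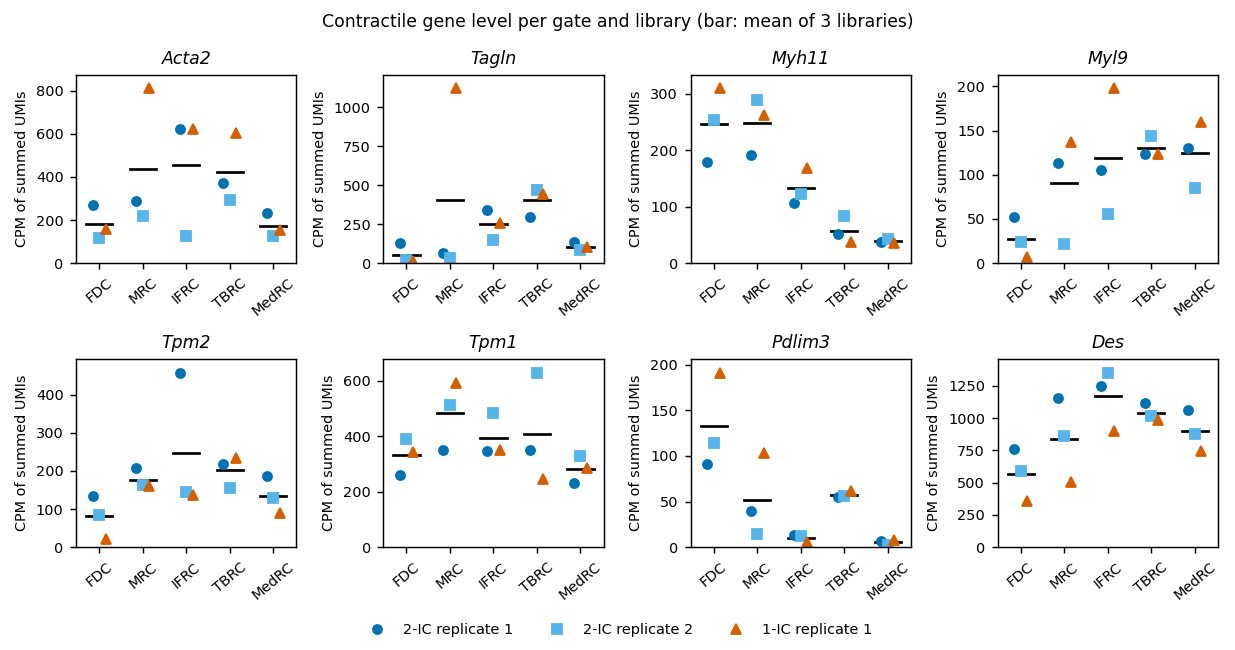
Level of the 8 tested genes (y axis, CPM of summed UMIs, linear from 0, with its own range in each panel) in the 5 gates (x axis). Each point is 1 library, and the bar is the mean of the 3 libraries. Pdlim3 and Myh11 lie high in the FDC gate, where Myl9 and Tpm2 lie low, and the 1-IC library sets the high MRC point of Acta2 and Tagln.

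Acta2, the actin isoform of vascular smooth muscle and of contractile fibroblasts, was at 624, 128 and 621 CPM in the IFRC gate of the first and the second 2-IC library and of the 1-IC library. In the same order, kept for all genes below, it was at 372, 295 and 602 CPM in the TBRC gate and at 288, 219 and 811 CPM in the MRC gate. It was at 268, 117 and 159 CPM in the FDC gate and at 235, 124 and 152 CPM in the MedRC gate. The ranges of all 5 gates overlapped except those of the TBRC gate with the FDC and MedRC gates, and 2-IC replicate 2 was the lowest library in every gate. Within each library the FDC gate was below the MRC, IFRC and TBRC gates. In order of mean, neighbours differed beyond the test's threshold at a single step, from the TBRC to the FDC gate (423 ± 160 against 181 ± 77.8 CPM, SD, n = 3, adjusted p = 0.0109 from edgeR).

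Tagln encodes transgelin, an early marker of smooth muscle differentiation. It was at 295, 469 and 443 CPM in the TBRC gate, 338, 145 and 260 CPM in the IFRC gate and 134, 80.9 and 103 CPM in the MedRC gate, and these 3 ranges did not overlap except for the first pair. The FDC gate had 132, 17 and 12.8 CPM, the last from 4 UMIs. In the MRC gate Tagln was at 62.1, 35.2 and 1120 CPM, and 83 of the 98 UMIs behind the highest value (84.7%) came from 1 of 13 barcodes. No step between neighbouring gates passed the test for Tagln, and without the 1-IC library its log2 fold change in MRC against MedRC was -1.29 (adjusted p = 0.196 from edgeR).

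Myh11, the smooth muscle myosin heavy chain and the most specific marker of the lineage in the set, had another order. It was at 179, 253 and 309 CPM in the FDC gate and at 192, 289 and 263 CPM in the MRC gate, and these values could not be separated (log2 fold change 0.09, standard error 0.22, adjusted p = 0.934 from edgeR). Of the 41 UMIs behind the MRC value of 289 CPM, 21 (51.2%) came from 1 of 7 barcodes. The IFRC gate followed with 106, 123 and 169 CPM, the TBRC gate with 52.1, 83.9 and 36.9 CPM, and the MedRC gate with 38.2, 42.2 and 35.7 CPM. Every library of the FDC and MRC gates lay above every library of the other gates, and the FDC to IFRC step passed the test. Between the FDC and MedRC gates the fitted fold was 5.76.

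Pdlim3 encodes a PDZ and LIM domain protein that binds alpha-actinin. Its level was 91.2, 114 and 191 CPM in the FDC gate, from 184 UMIs in all, and 54.5, 56.4 and 61.5 CPM in the TBRC gate. In the IFRC gate it was 13.5, 12.1 and 5.64 CPM, and in the MedRC gate 6.54, 2.38 and 7.51 CPM. The FDC libraries lay above all others except the 1-IC library of the MRC gate, where 9 UMIs gave 103 CPM, against 39.5 and 14.1 CPM in the 2-IC libraries. The FDC to TBRC step passed the test, and the later steps did not.

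Myl9, the regulatory light chain of smooth muscle myosin, was at 124, 144 and 123 CPM in the TBRC gate and 130, 85 and 159 CPM in the MedRC gate. In the FDC gate it was at 52.1, 24.3 and 6.38 CPM, the last from 2 UMIs, below every library of the IFRC gate (105, 55.6 and 198 CPM). The MRC gate spread from 21.1 to 137 CPM. Thus the light chain was low in the FDC gate while the heavy chain Myh11 was high there.

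Tpm1 and Tpm2 encode tropomyosins, which lie in the groove of the actin filament. Tpm2 was at 134, 85.2 and 22.3 CPM in the FDC gate, and the MRC gate (209, 162 and 160 CPM) and the TBRC gate (218, 156 and 234 CPM) lay above it in every library. The IFRC gate was at 458, 145 and 135 CPM and the MedRC gate at 186, 129 and 90.1 CPM. Tpm1, which non-muscle cells also express, varied least between gates, from a mean of 283 ± 48.7 CPM in the MedRC gate to 486 ± 125 CPM in the MRC gate (SD, n = 3), and no difference between any pair of the 5 gates passed the test. Among B cell barcodes it was also the member seen most often.

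Des, the muscle intermediate filament protein, was the most abundant member, in 1089 of the 1172 gated barcodes. It was at 1252, 1353 and 898 CPM in the IFRC gate, 1115, 1019 and 983 CPM in the TBRC gate and 1066, 880 and 749 CPM in the MedRC gate. The MRC gate had 1157, 860 and 503 CPM and the FDC gate 757, 587 and 360 CPM. The FDC gate was the lowest in every library, although its range overlapped those of the MRC and MedRC gates.

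The first comparison asks how follicular dendritic cells differ from the marginal reticular cells next to them. Of the 8 genes tested, only Pdlim3 was called, 2.97-fold higher in the FDC gate (log2 fold change 1.57, standard error 0.37, adjusted p = 0.0163 from edgeR, higher in 3 of 3 libraries). The background was 3.11% of genes called in either direction, 2.14% higher and 0.97% lower. The other values leaned lower in the FDC gate, with log2 fold changes from -2.08 for Tagln to -0.40 for Tpm1 for 6 genes, and the median over the 8 genes was -0.71, against 0.03 over all genes. The call of Pdlim3 did not hold without 2-IC replicate 1 (log2 fold change 1.77, adjusted p = 0.0658 from edgeR), without 2-IC replicate 2 (1.17, adjusted p = 0.165), without the filter on blood and endothelial RNA (0.91, adjusted p = 0.112), with gates at 3 UMIs (1.56, adjusted p = 0.0606), with thinning to 2000 UMIs (1.39, adjusted p = 0.79) or without library as a block (1.62, adjusted p = 0.156). Without 2-IC replicate 1, Tagln (-4.60, adjusted p = 0.000431) and Acta2 (-1.49, adjusted p = 0.0469) were called instead, and without the 1-IC library Tagln turned to 0.80.

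FDC against IFRC compares Cr2-positive barcodes, wherever their cells lay in the follicle, with the Tnfsf11 gate. That gate is named for reticular cells between follicles but may also hold MRCs. Of the 8 genes, 2 were higher (background 6.87% of genes) and 4 lower (4.34%) in the FDC gate, with 11.2% of genes called in all. Pdlim3 was 10.2-fold higher by the fit (log2 fold change 3.35, standard error 0.36, adjusted p = 4.18e-07 from edgeR) and Myh11 1.97-fold higher (0.98, standard error 0.20, adjusted p = 0.00133). The fold of Pdlim3, like its others against IFRC, is set against 14 UMIs in 131 barcodes, with 1 UMI in the 1-IC library. The part of free RNA in that level was not tested. Lower were Myl9 (-1.59, adjusted p = 0.00672), Tpm2 (-1.48, adjusted p = 0.000707), Acta2 (-1.10, adjusted p = 0.0211) and Des (-0.99, adjusted p = 0.000173), each in 3 of 3 libraries. Tagln had the lowest log2 fold change, -1.87, but a standard error of 0.62 and an adjusted p of 0.0546, and Tpm1 was at -0.18 (adjusted p = 0.675). The median over the 8 genes was -1.04, against -0.01 over all genes.

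Some of these calls were lost with 1 library fewer, at log2 fold changes that stayed below 0. Without 2-IC replicate 1 Acta2 (-1.004, adjusted p = 0.122 from edgeR) and Tpm2 (-1.19, adjusted p = 0.0615) were not called, and Tagln was called (-3.51, adjusted p = 0.0028). Without the 1-IC library Acta2 (-0.80, adjusted p = 0.115 from edgeR) and Myl9 (-0.97, adjusted p = 0.0863) were not called, and Tagln was (-1.55, adjusted p = 0.00995). Without library as a block only Pdlim3 was called. In 2-IC replicate 2 the FDC and IFRC gates were close in Acta2 (log2 ratio of CPM -0.13). Acta2 was also not called with DESeq2 (-1.06, adjusted p = 0.0865). In edgeR it was not called with thinning (-0.72, adjusted p = 0.234) or with gates at 1 UMI (-0.96, adjusted p = 0.0517). Without the filter on blood and endothelial RNA, the difference of Myh11 was 0.26 (adjusted p = 0.558).

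MRC against IFRC gave 1 call of 8, with a background of 2.23% of genes called, 1.16% higher and 1.07% lower. Myh11 was 1.86-fold higher in the MRC gate (log2 fold change 0.89, standard error 0.24, adjusted p = 0.0446 from edgeR), in 3 of 3 libraries. It did not pass without 2-IC replicate 1 (0.94, adjusted p = 0.252), without 2-IC replicate 2 (0.70, adjusted p = 0.372), or without the barcodes that occurred in more than 1 library (0.68, adjusted p = 0.197). Pdlim3, at 1.77 with a standard error of 0.57, was higher in 3 of 3 libraries and was not called (adjusted p = 0.121). Without the 1-IC library Tagln was called lower in the MRC gate (-2.35, adjusted p = 0.0256 from edgeR), where the 3 libraries gave 0.22.

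TBRC against IFRC compares the gates named for reticular cells at the edge of the T zone and between follicles. Again 1 gene of 8 was called (background 3% of genes, 1.58% higher and 1.41% lower), Pdlim3, which was 5.21-fold higher in the TBRC gate (log2 fold change 2.38, standard error 0.44, adjusted p = 0.00197 from edgeR) in 3 of 3 libraries. It remained called without any 1 of the libraries, and was not called when 1 UMI of a gate gene sufficed (1.24, adjusted p = 0.335). Its IFRC level rests on 14 UMIs. Myh11 was lower in 3 of 3 libraries without passing the test (-0.85, adjusted p = 0.0653), and the remaining 6 genes had log2 fold changes between -0.28 and 0.93.

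MedRC against IFRC gave 2 calls of 8, both lower (background 5.53% of genes, 3.08% higher and 2.45% lower). Myh11 was 2.92-fold lower in the MedRC gate (log2 fold change -1.54, standard error 0.22, adjusted p = 6.65e-05 from edgeR) and Acta2 2.17-fold lower (-1.11, standard error 0.30, adjusted p = 0.0242), each in 3 of 3 libraries. Acta2 did not pass without 2-IC replicate 1 (-0.95, adjusted p = 0.263) or without the 1-IC library (-0.86, adjusted p = 0.0954), while Myh11 passed in both cases. In 2-IC replicate 2 the gates hardly differed in Acta2 (log2 ratio of CPM -0.04). Acta2 was not called with DESeq2 (-1.10, adjusted p = 0.107) either. In edgeR it was not called with thinning (-0.26, adjusted p = 0.865), gates at 3 UMIs (-0.97, adjusted p = 0.159) or no block (-1.31, adjusted p = 0.408). Tagln (-1.07), Pdlim3 (-1.01), Tpm2 (-0.69), Tpm1 (-0.38) and Des (-0.26) had values below 0 without a call, and Myl9 was at 0.31.

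**Figure D2:**
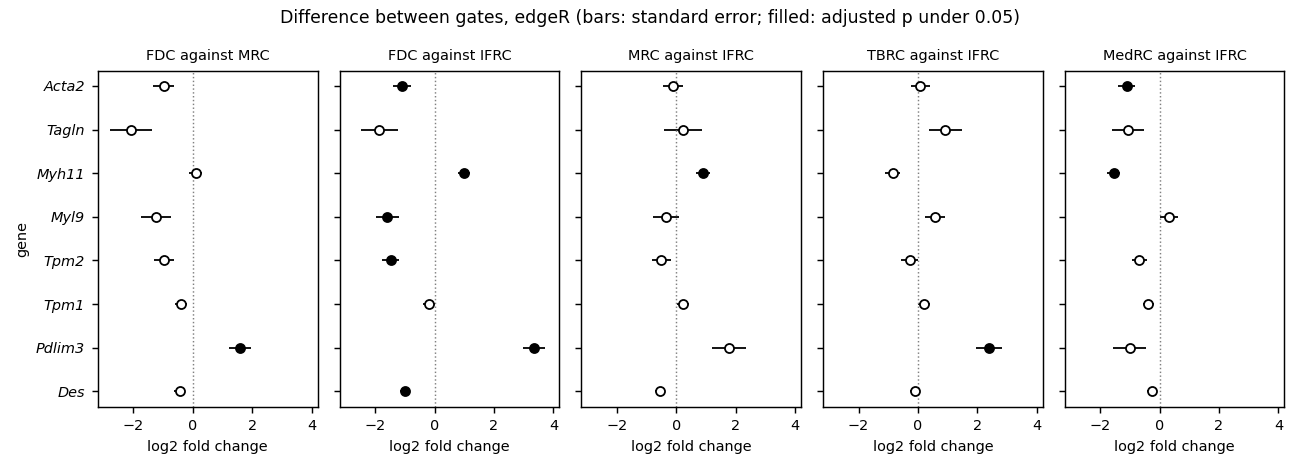
Log2 fold change (x axis) of the 8 tested genes (y axis) in the 5 main comparisons, positive where the first gate named was higher, from edgeR with library as a block. Bars are 1 standard error and filled points have an adjusted p under 0.05. In FDC against IFRC, Pdlim3 and Myh11 lie to the right and Acta2, Myl9, Tpm2 and Des to the left.

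The other 5 pairs of gates share their sums with these comparisons. FDC against TBRC had 2 genes higher (background 8.52%) and 5 lower (7.62%), 16.1% of genes being called in all. Tagln was 6.94-fold lower in the FDC gate (log2 fold change -2.79, adjusted p = 0.0023 from edgeR), Myl9 4.46-fold lower and Myh11 3.57-fold higher. Without 2-IC replicate 2, Tagln (-1.98, adjusted p = 0.0713 from edgeR), Acta2 (-1.07, adjusted p = 0.0505) and Pdlim3 (0.96, adjusted p = 0.0685) were not called. Pdlim3 was not called without the 1-IC library either (0.83, adjusted p = 0.0895).

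In FDC against MedRC, Pdlim3 was 20.5-fold higher in the FDC gate by the fit (log2 fold change 4.36, standard error 0.30, adjusted p = 6.55e-11 from edgeR). This fold, like the others of Pdlim3 against MedRC, is set against 26 UMIs in 683 barcodes, and the part of free RNA in that level was not tested. Myh11 was higher as well and Myl9, Tpm2 and Des lower, against a background of 24.4% of genes called (12.1% higher, 12.3% lower). Acta2, called in the other FDC comparisons with IFRC and TBRC, was at 0.02 here (standard error 0.31). The call of Tpm2 (-0.78, adjusted p = 0.039) did not hold without any 1 of the libraries (adjusted p = 0.0658 without 2-IC replicate 1, 0.0723 without replicate 2 and 0.143 without the 1-IC library).

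MRC against TBRC had 1 call, Myh11 higher in the MRC gate (log2 fold change 1.75, adjusted p = 8.33e-05 from edgeR, background 4.01% higher, 5.15% lower and 9.16% in all). MRC against MedRC had 3 calls, all higher (background 6.05% higher, 7.27% lower and 13.3% in all): Pdlim3 6.89-fold, Myh11 5.41-fold and Acta2 2-fold. Acta2 was no longer called without the 1-IC library (0.36, adjusted p = 0.641 from edgeR). TBRC against MedRC also had 3 calls, all higher (background 1.55% higher, 1.87% lower and 3.42% in all): Pdlim3 10.5-fold, Tagln 3.98-fold and Acta2 2.3-fold. Tagln was not called without 2-IC replicate 2 (1.47, adjusted p = 0.49 from edgeR), and Acta2 was not called without it (1.17, adjusted p = 0.139) or without the 1-IC library (0.98, adjusted p = 0.0561).

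The share of barcodes with a UMI was compared after thinning every barcode to 2000 UMIs. In the FDC gate 36.2 ± 9.06% of barcodes had Myh11 (SD, n = 3 libraries, 65.7% before thinning) and 21.1 ± 7.22% had Pdlim3 (32% before). In the MedRC gate these shares were 6.52 ± 0.873% (21.4% before) and 0.144 ± 0.249% (3.52% before). Acta2 was seen in 17.3 ± 9.81% of FDC barcodes (32.7% before) and 40.5 ± 15.4% of IFRC barcodes (63.9% before). Des was seen in 60.1 ± 12.3% of FDC barcodes (81.6% before) and 86.1 ± 15.1% of TBRC barcodes (98.7% before). In these pairs of gates the shares followed the CPM values.

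Free RNA was gauged in 449 B cell barcodes without matrix RNA, with a median of 3354 UMIs against 6004 in the FDC gate and 5937 in the MedRC gate. Free RNA and RNA that the B cells made themselves were not told apart. Leaving out barcodes with matrix RNA also leaves out those that took up free stromal RNA. The levels below may therefore understate free RNA, by an amount that was not tested. At 2000 UMIs, 7.12% of 379 such barcodes had Tpm1, 3.69% Des, 1.32% Myh11, 1.06% Acta2 and 0.264% Pdlim3 or Myl9, and none had Tagln or Tpm2. Pdlim3 was seen in 2 of 656 MedRC barcodes and in 1 of 125 IFRC barcodes at this depth, against 1 of 379 B cell barcodes, and such counts do not separate these gates from background. Over all UMIs the MedRC gate was at 5.48 CPM and the IFRC gate at 10.4 CPM, against 1.61 CPM in the B cell barcodes.

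Within a gate the genes were spread unevenly over barcodes. The variance of UMIs divided by their mean, at 2000 UMIs per barcode, had a median of 2.66 for Tagln (10 gate and library pairs with at least 20 barcodes and 5 UMIs) and 2.39 for Acta2 (11 pairs). It was 1.59 for Pdlim3 (4 pairs), 1.55 for Myl9 (7), 1.27 for Des (12) and Tpm2 (10), 1.21 for Myh11 (11) and 1.1 for Tpm1 (12), where a value of 1 is that of counting error alone. Tagln and Acta2 therefore had the widest spread, and the median of Myh11 was close to that of Des. The ratio rises with the level of a gene where cells differ, so genes of unlike level are set side by side here as a description.

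**Figure D3:**
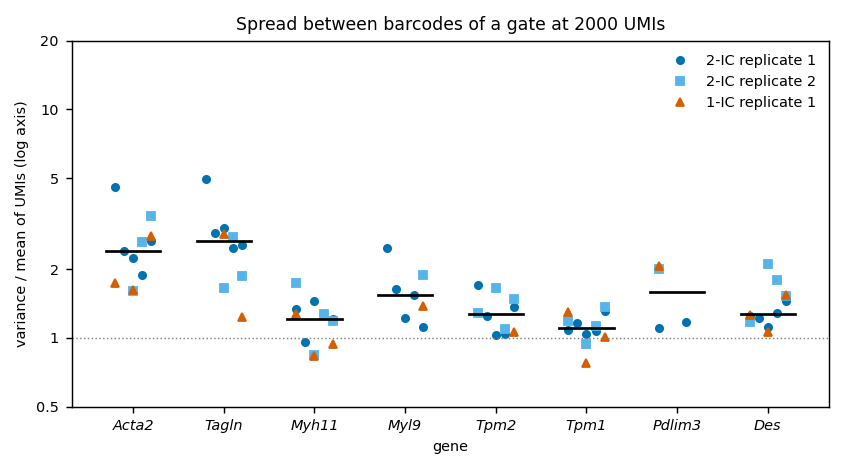
Variance divided by mean of the UMIs of each gene (y axis, log scale) over barcodes of a gate in a library, at 2000 UMIs per barcode. Points are gate and library pairs, offset from left to right as FDC, MRC, IFRC, TBRC and MedRC, bars are medians, and the dotted line at 1 is counting error. All genes but Myh11 and Tpm1 lie above 1 in every pair shown, and Acta2 and Tagln have the highest medians.

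Single barcodes held much of the Acta2 and Tagln counts. In the MRC gate of 2-IC replicate 2, 22 of 31 Acta2 UMIs (71%) came from 1 of 7 barcodes. Myh11 was concentrated there as well, with 21 of 41 UMIs (51.2%) in 1 barcode. In the MRC gate of the 1-IC library, 42 of 71 Acta2 UMIs (59%) came from 1 of 13 barcodes. In the IFRC gate of the 1-IC library 28 of 46 Tagln UMIs (60.9%) came from 1 of 22 barcodes, whereas the barcode with the most Des held 13.2% of its UMIs there. In the MedRC gate of 2-IC replicate 1, with 486 barcodes, the highest shares were 8.94% for Tagln, 6.35% for Acta2, 4.76% for Myh11 and 1.36% for Des.

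Without the barcode with the most member RNA in each gate and library, Tagln was called lower in the FDC than in the IFRC gate (-2.14, adjusted p = 0.000783 from edgeR). Acta2 was no longer higher in the MRC than in the MedRC gate (0.30, adjusted p = 0.653), and Myh11 was not called in MRC against IFRC (0.75, adjusted p = 0.123).

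Acta2 and Tagln also tended to lie in the same barcodes. Over 11 gate and library pairs their correlation across barcodes at 2000 UMIs averaged r = 0.33 (range -0.07 to 0.84), and that of Tagln and Myl9 averaged 0.28. Acta2 and Des averaged 0.08 (12 pairs), and Myh11 and Pdlim3, both high in the FDC gate, averaged 0.09 (8 pairs). The barcodes of a pair share a library and a depth, and the highest value, in the FDC gate of 2-IC replicate 1, fell to a rank correlation of 0.33. These are descriptions of sparse counts.

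Over the 15 sums, which share 3 libraries, log2 CPM of Tagln and Myl9 had r = 0.78, of Tpm2 and Des 0.78 and of Acta2 and Tagln 0.76, while Myh11 had r = -0.65 with Myl9 and -0.59 with Des. The genes most like Myh11 over these sums were Pde4dip (r = 0.97), Ptpn14 (0.96), Lxn (0.95), Fnbp1l (0.95) and Itga6 (0.94). Those most like Des were Serpinh1, a collagen chaperone (0.92), Gstm1 (0.90), Pnp (0.88), Ergic1 (0.88) and Col6a1, a chain of collagen VI (0.88). Acta2 had weaker partners, Tspan17 (0.84), Eif6 (0.84), Pgam1 (0.83), Adprh (0.83) and Cd320 (0.83).

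The FDC gate holds barcodes with little of the nuclear RNA Malat1 (under 1% of UMIs), which had fewer UMIs. With these apart, Pdlim3 was at 149 ± 67.8 CPM in barcodes with at least 1% Malat1 and 46 ± 35.4 CPM in the others (SD, n = 3), and was higher in the former in 3 of 3 libraries. The low-Malat1 levels rest on 12, 1 and 2 Pdlim3 UMIs (2-IC replicate 1, 2-IC replicate 2 and 1-IC replicate 1). In 2-IC replicate 1, which had the most of these UMIs, the levels were close, at 92.4 and 85.2 CPM. Myh11 was at 234 ± 69.9 and 323 ± 171 CPM and Des at 572 ± 207 and 548 ± 161 CPM. The other gates held low-Malat1 barcodes too, and the fit without them left them out of every gate. In 2-IC replicate 1 the IFRC gate then held 69 barcodes, against 82 before. In this fit Tagln was called lower in the FDC than in the IFRC gate (-2.35, adjusted p = 0.0145 from edgeR), and the other calls of that comparison held.

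**Figure D4:**
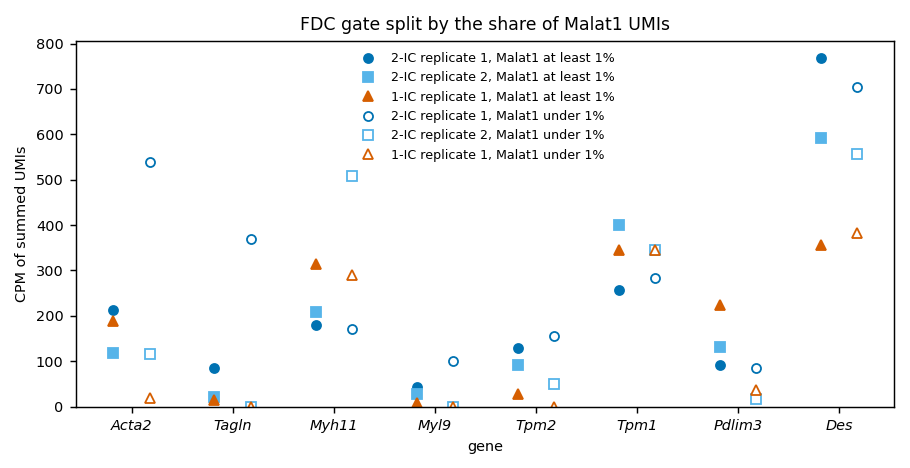
Level of the 8 tested genes (y axis, CPM of summed UMIs, linear from 0) in FDC-gate barcodes with at least 1% of UMIs from Malat1 (filled) and under 1% (open), per library. Pdlim3 lies lower in the open points, though little lower in 2-IC replicate 1, and Acta2 and Tagln of that library lie highest in them.

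Other genes of the contractile system are given from lists of 25 genes associated with smooth muscle, 15 of the non-muscle cytoskeleton and 21 regulators, of which 18, 15 and 15 were tested. In FDC against IFRC, 2 of the 18 smooth muscle genes were higher and 1 lower, and 2 of the 15 non-muscle genes were higher and 1 lower, against a background of 6.87% of genes higher and 4.34% lower. Ppp1r14a, an inhibitor of myosin phosphatase, was 17.8-fold higher in the FDC gate (log2 fold change 4.15, standard error 0.61, adjusted p = 2.86e-05 from edgeR), Dstn, the actin-severing protein destrin, named after its value was seen, 1.53-fold higher (0.61, adjusted p = 0.0359), and Mustn1, a small protein of the musculoskeletal system, was 4.23-fold lower (-2.08, adjusted p = 4.62e-05). Tmsb4x, the actin-sequestering thymosin beta 4, was 5.4-fold higher (2.43, adjusted p = 2.88e-11), the focal adhesion gene Zyx 1.7-fold higher (0.76, adjusted p = 0.0494) and the non-muscle myosin Myh10 2.12-fold lower (-1.08, adjusted p = 0.0495). No regulator was called. The calls of Ppp1r14a, Mustn1 and Tmsb4x held in every alternative that gave a value for them (14, 16 and 16 alternatives). Those of Zyx and Myh10 did not hold when any 1 library was left out (adjusted p from 0.0786 to 0.266 for Zyx and from 0.0927 to 0.491 for Myh10, edgeR) or with DESeq2 (0.102 and 0.123), and that of Dstn did not hold without low-Malat1 barcodes (0.35, adjusted p = 0.295) or without 2-IC replicate 1 (0.65, adjusted p = 0.231) or the 1-IC library (0.46, adjusted p = 0.208). Without the filter on blood and endothelial RNA, Zyx was at 0.23 (adjusted p = 0.657 from edgeR) and Dstn at 0.24 (adjusted p = 0.493), and without library as a block none of these 3 was called.

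In FDC against MRC and in MRC against IFRC the lists gave 1 call each over the 18, 15 and 15 genes tested (background 3.11 and 2.23% of genes), Tmsb4x, which was higher in the first gate (log2 fold changes 1.24 and 1.19, adjusted p = 2.13e-06 and 3.37e-05 from edgeR). In FDC against MRC its value was 0.57 without low-Malat1 barcodes (adjusted p = 0.0759) and 0.60 with thinning (adjusted p = 0.359), and in MRC against IFRC it was 0.59 with gates at 1 UMI (adjusted p = 0.0777). Without library as a block neither was called (adjusted p = 0.106 and 0.194). In TBRC against IFRC, Klf4, a transcription factor that represses smooth muscle genes, was 2.89-fold higher (1.53, adjusted p = 0.00317) and Mylk, the myosin light chain kinase, 1.66-fold lower (-0.73, adjusted p = 0.00873), against a background of 3% of genes called. Without 2-IC replicate 1 neither was called (Klf4 1.25, adjusted p = 0.163, and Mylk -0.80, adjusted p = 0.211), nor without library as a block (adjusted p = 0.194 and 0.406) or with thinning (0.06, adjusted p = 0.984, and -0.74, adjusted p = 0.734). Klf4 was not called with gates at 3 UMIs (1.05, adjusted p = 0.166), and Mylk was not called without 2-IC replicate 2 (-0.71, adjusted p = 0.062) or with gates at 1 UMI (-0.47, adjusted p = 0.322).

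MedRC against IFRC had the most list calls, with 2 of 18 smooth muscle genes higher and 4 lower, 1 of 15 regulators higher and none of 15 non-muscle genes called, against a background of 3.08% of genes higher and 2.45% lower. Csrp2, a LIM protein of smooth muscle, was 6.6-fold higher in the MedRC gate (log2 fold change 2.72, adjusted p = 0.000327 from edgeR), Klf4 4.37-fold higher (2.13, adjusted p = 3.6e-05) and the caveolar gene Cav1 2.53-fold higher (1.34, adjusted p = 0.00725). Ppp1r12b, a myosin phosphatase subunit, and Actn1, an alpha-actinin, were lower (-1.09 and -1.07, adjusted p = 0.0181 and 0.00451). The filamin gene Flna (-0.70, adjusted p = 0.0189) and Mylk (-0.49, adjusted p = 0.047) were also lower, and were named after their values were seen. The calls of Csrp2 and Klf4 held in every alternative that gave a value (15 and 16 alternatives). Without 2-IC replicate 1, Cav1 (1.504, adjusted p = 0.0621 from edgeR), Ppp1r12b (-0.88, adjusted p = 0.416), Actn1 (-1.20, adjusted p = 0.08), Flna (-0.49, adjusted p = 0.588) and Mylk (-0.49, adjusted p = 0.518) were not called, nor was any of these 5 without library as a block. Without the 1-IC library Ppp1r12b was not called either (-1.02, adjusted p = 0.0627), and Mylk was not called without any 1 of the libraries (adjusted p from 0.108 to 0.518). Without the filter on blood and endothelial RNA Cav1 was at 0.56 (adjusted p = 0.305). The medians of the lists lay between -0.24 and 0.30 in the 5 comparisons, against -0.01 to 0.03 over all genes.

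As pericytes and vascular smooth muscle share these genes, 8 pericyte markers were counted in the gates. Rgs5 was seen in 54.5 to 85.7% and Abcc9 in 51.6 to 95.4% of the barcodes of every gate, with the summed list at 602 to 1778 CPM. Abcc9, Kcnj8 and Notch3 averaged 247, 62.5 and 20.8 CPM in the FDC gate and 577, 218 and 63.5 CPM in the IFRC gate, while Rgs5 averaged 714 and 525 CPM. The former 3 were lower in the FDC gate in 3 of 3 libraries, as Acta2, Myl9, Tpm2 and Des were. Cspg4, Higd1b, Ndufa4l2 and Mcam were at 0 or near it in every gate, with at most 2 UMIs each in the FDC, MRC and IFRC gates and at most 8 in the TBRC and MedRC gates. Without barcodes that had any of these 4, Tagln passed in FDC against IFRC (-1.88, adjusted p = 0.042 from edgeR), Myh11 passed as lower in TBRC against IFRC (adjusted p = 0.0303), and Tagln did not pass in TBRC against MedRC (1.74, adjusted p = 0.0698). Of the other lists, B cell RNA was at 317 to 1106 CPM in the FDC, MRC and IFRC gates and 135 to 642 CPM in the TBRC and MedRC gates. Myeloid RNA was at most 156 CPM and endothelial RNA at most 22.6 CPM in any gate. The part of these RNAs in the differences between gates was not tested.

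The IC schedules could not be compared by test, as 1 library of the 1-IC group was analysed. Over the 40 pairs of a tested gene and a gate, the 1-IC value lay within the range of the 2-IC libraries in 10, above it in 14 and below it in 16. With 1 library set against 2, a value often falls outside their range without any difference. The same count over all genes was not made, so these counts are not read as an effect of the schedule. In the FDC gate the 1-IC library had the highest Pdlim3 and Myh11 and the lowest Des, Tpm2, Myl9 and Tagln of the 3 libraries. Other genes differed between the FDC gates of the libraries as well. In the order used above, Inmt was at 181, 436 and 19.1 CPM, Col1a2 at 895, 947 and 214 CPM and Cxcl13 at 33086, 20236 and 55104 CPM. Cr2 was at 1076, 1314 and 1075 CPM. The part of the make-up of the gate in the values of the members was not tested. IC schedule and library cannot be told apart here, and the 2-IC libraries carry different tags.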

How the data were processed

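The authors deposited filtered matrices of UMI counts per gene and barcode, made from Chromium 3' libraries with Cell Ranger. Per the methods this was version 3 with Ensembl release 89 of GRCm38, whereas the submitters' processing notes name Cell Ranger 5.0.0. Barcodes with at least 200 genes, at most 10% mitochondrial UMIs, no UMI of 13 blood, endothelial and epithelial genes and at least 5 UMIs over 6 stromal genes were kept. No doublet caller was run. Counts were summed per library and gate (sums of at least 5 barcodes). They were tested with edgeR 4.0.16 in R 4.3.3 (filterByExpr, TMM, quasi-likelihood, library as a block, default prior count), with Benjamini-Hochberg adjustment over all tested genes. A prior count of 2 was used only for the log2 CPM of the correlations over sums. The sums of a library come from 1 cell suspension, which is the reason for the block. The code was tested on simulated data. DESeq2 1.42.0, other gates and filters, thinning to 2000 UMIs and leaving out each library were the alternatives. Counting intervals do not cover PCR or capture. The named genes are the 10 members, up to 5 list genes per main comparison of largest absolute fold change among those called and with 1 direction over the libraries, and the 5 genes most correlated with Acta2, Myh11 and Des. The members and lists were chosen with earlier results of these data known. The alternatives without shared barcodes, without pericyte markers at low level and without the top barcode were chosen after seeing the data. The gate thresholds decide which barcodes are compared, and a UMI minimum favours deeply sequenced barcodes.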

Additional observations from a re-analysis of the deposited data

Results flagged for a closer look

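In 7 of the 40 pairs of a tested gene and a main comparison, the 1-IC library moved one way and both 2-IC libraries the opposite way. The same count over all genes was not made, and such signs can arise without any difference between the groups. The difference between the groups was not tested, as the 1-IC group has 1 library, and the 2-IC libraries were grouped by their shared schedule although their short tags differ. Values are log2 ratios of CPM. For Tagln in MRC against IFRC the ratio was 2.11 in the 1-IC library and -2.44 and -2.04 in the 2-IC libraries, and 83 of the 98 MRC UMIs of the 1-IC library came from 1 barcode. For Pdlim3 in MedRC against IFRC it was 0.41, against -1.05 and -2.34, on 4 and 1 UMIs in the 1-IC library. Myl9 was at -0.68 in TBRC against IFRC (2-IC 0.24 and 1.37) and at -0.31 in MedRC against IFRC (2-IC 0.31 and 0.61). Tpm1 was at -0.51 in TBRC against IFRC (2-IC 0.02 and 0.38) and Des at 0.13 (2-IC -0.17 and -0.41). For Myh11 in FDC against MRC the ratio was 0.24, against -0.10 and -0.19.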

How the results depend on the processing

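Of 80 alternative counts of called members, 48 were within 1.5 times the reported count and 32 were not. A count can match although the gene and direction differ. With no contaminant filter the 1 call of FDC against MRC was Tpm2, lower (-1.08), and not Pdlim3. In MRC against IFRC the 1 call was Des, lower, and not Myh11, with no contaminant filter (-0.66) and with no filter on low counts (-0.62). In FDC against MRC (1 reported) the count was 5 with gates at 1 UMI, 3 with gates at 3 UMIs, 3 with no filter on low counts, 0 with thinning to 2000 UMIs and 0 with no replicate block, and 0 to 2 with 1 library left out. In FDC against IFRC (6 reported) it was 1 with no replicate block. In MRC against IFRC (1 reported) it was 0 with gates at 1 UMI, 0 at 3 UMIs, 0 without shared barcodes, 0 without the top member barcode, 0 with no replicate block, 0 with DESeq2, 2 with thinning, and 0 to 2 with 1 library left out. In TBRC against IFRC (1 reported) it was 0 with gates at 1 UMI, 0 with thinning, and 2 with gates at 3 UMIs, without Cspg4, Higd1b, Ndufa4l2 or Mcam barcodes, without the top member barcode, without TMM or without the low count filter. In MedRC against IFRC (2 reported) it was 1 with gates at 3 UMIs, 1 with no replicate block, 1 with DESeq2, 0 with thinning, 4 with no low count filter, and 1 to 2 with 1 library left out.

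Of 1544 alternative values of single genes, 1292 kept direction and side of the threshold, 147 lost the call, 50 gained one and 55 reversed. Of the reversed values, Pdlim3 in FDC against TBRC and Acta2 in MRC against MedRC were called in the reported test. With no contaminant filter, the reversed values were Myh11 -0.21 in FDC against MRC, Tagln -0.51 and Tpm1 -0.15 in MRC against IFRC, Acta2 -0.23 and Des 0.033 in TBRC against IFRC, Pdlim3 -0.0095 in FDC against TBRC, Tpm1 -0.18 in MRC against TBRC. Without low-Malat1 barcodes, the reversed values were Myh11 -0.058 in FDC against MRC, Acta2 0.033 in MRC against IFRC, Acta2 -0.096 in FDC against MedRC. Without TMM, the reversed value was Myh11 -0.031 in FDC against MRC. With thinning, the reversed values were Tpm2 5.82 and Des 0.62 in FDC against MRC, Tpm1 0.041 in FDC against IFRC, Tagln -1.13 in MRC against IFRC, Des 0.059 in TBRC against IFRC, Pdlim3 2.05 and Des 0.078 in MedRC against IFRC, Tpm1 0.0029 in FDC against TBRC, Acta2 -0.46 in FDC against MedRC, Acta2 -0.13, Tagln -0.33 and Tpm2 -7.18 in MRC against MedRC, Myh11 -5.28, Myl9 -0.012, Tpm2 -1.01 and Des -0.019 in TBRC against MedRC. With gates at 1 UMI, the reversed values were Acta2 0.21 and Myl9 0.12 in MRC against IFRC, Tpm1 -0.093 in TBRC against IFRC, Pdlim3 0.25 in MRC against TBRC. With gates at 3 UMIs, the reversed value was Acta2 -0.89 in FDC against MedRC. Without the top member barcode, the reversed values were Tagln -1.40 in MRC against IFRC, Acta2 -0.097 in TBRC against IFRC, Acta2 -0.0018 in FDC against MedRC, Tpm1 -0.015 in MRC against TBRC, Tagln -0.48 in MRC against MedRC. Without shared barcodes, the reversed value was Tpm1 -0.0102 in MRC against TBRC. With no filter on low counts, the reversed value was Tpm1 -0.019 in MRC against TBRC. With no replicate block, the reversed value was Acta2 -0.093 in TBRC against IFRC. Without barcodes with Cspg4, Higd1b, Ndufa4l2 or Mcam, the reversed value was Acta2 -0.062 in TBRC against IFRC. With 1 library left out, the values that changed sign spanned Tagln from -4.60 to 0.80 in FDC against MRC, Myh11 from -0.033 to 0.19 in FDC against MRC, Acta2 from -0.50 to 0.49 in MRC against IFRC, Tagln from -2.35 to 1.09 in MRC against IFRC, Tpm2 from -0.80 to 0.17 in MRC against IFRC, Tpm1 from -0.0034 to 0.38 in MRC against IFRC, Acta2 from -0.35 to 0.50 in TBRC against IFRC, Tpm2 from -0.52 to 0.32 in TBRC against IFRC, Des from -0.21 to 0.055 in TBRC against IFRC, Acta2 from -0.053 to 0.10 in FDC against MedRC, Tagln from -3.27 to 0.31 in MRC against TBRC, Tpm1 from -0.30 to 0.28 in MRC against TBRC, Tagln from -1.29 to 2.01 in MRC against MedRC and Myl9 from -0.15 to 0.40 in TBRC against MedRC. The cause was not tested, except that thinning before gating left 5 or more barcodes in 2 libraries for the MRC gate and in 1 for the TBRC gate. The MRC sums then held no Tpm2 UMI, so that fold changes of Tpm2 there depend on edgeR's default prior count. The alternative that left out barcodes with any of 6 pericyte genes was not fitted, as it left no IFRC or TBRC barcode. The labels carry no number that pairs libraries, and the replicate block is the library itself. Depth limits Pdlim3 in the IFRC and MedRC gates, Tagln and Myl9 in the FDC gate, and all values of the MRC gate, which held 44 barcodes.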
